A study of Rattus norvegicus with 61 samples.

Results

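Of 30 striatal libraries of a rat study, 3 held under 500 CPM (a gene's read count scaled to the total of its library) of Ppp1r1b, which encodes a phosphatase inhibitor under the control of dopamine signalling, and these 3 are described library by library against the 27 others. The limit was set on CPM of the raw library total, whatever the exposure. The libraries are named by exposure group and animal number: sham 17, low 20 and high 13. All animals were male Sprague-Dawley rats given an implant under the skin at postnatal day 28, which they carried for 28 days. Loadings of 4-OH-PCB52, a polychlorinated biphenyl carrying a hydroxyl group, were 1% in the low group, 5% in the medium group and 10% in the high group. The sham group carried an implant with 0%. RNA came from punches of the striatum (8 sham, 6 low, 8 medium and 8 high libraries) and of the cerebellum (7, 8, 8 and 8 libraries). The position of each punch is not given in the sources used here.

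Most neurons of the striatum are GABAergic projection neurons, which carry dopamine and adenosine receptors and answer dopamine through cyclic AMP. The striatum borders the lateral ventricle, whose choroid plexus makes cerebrospinal fluid and secretes transthyretin, and whose wall is lined by ciliated ependyma. Cortex lies above it, the septum lies medially, and the thalamus, habenula and hypothalamus, parts of the diencephalon, lie behind and below. Excitatory neurons of the thalamus carry the vesicular glutamate transporter encoded by Slc17a6, and those of the cortex mainly that encoded by Slc17a7.

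The raw-total values that chose the libraries were 212 CPM of Ppp1r1b in sham 17 (2022 reads), 218 in low 20 (1440 reads) and 269 in high 13 (2172 reads). The nearest library above the limit was high 44 with 1389 CPM, followed by sham 34 with 2827, and the highest was high 28 with 6315. The gap between the 3 libraries and high 44 held no library. Totals of the 3 were 6599520 to 9555277 reads, within the range of all striatal libraries (5850199 to 10944066, median 7139973), so their depth was ordinary. No 2 libraries agreed within sampling noise. All further levels are CPM after TMM scaling, which aligns libraries on genes that differ little. Because the 3 libraries were chosen on the striatal table, no gene of that table was tested between them and the others, and each value of theirs is 1 library with no replicate check. The labels name both poly(A) capture and ribosomal RNA removal, without saying which library had which.

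The 3 libraries differed from the others over many genes, in both directions. Differences are log2 of CPM + 1 in a library over the median CPM + 1 of the 27 others, which understates the change of low genes. Among genes with at least 5 CPM in the library or in that median, sham 17 had 283 of 11049 genes more than 4-fold higher (2.56%) and 122 lower (1.1%). In low 20, 211 of 10876 genes were higher (1.94%) and 197 lower (1.81%), and in high 13, 179 of 10865 were higher (1.65%) and 206 lower (1.9%). The 27 others had 0 to 76 genes higher (median 3, most in sham 48) and 0 to 334 lower (median 1, most in high 28). The number of higher genes was thus above that of any other library in each of the 3, whereas high 28 (334) and medium 41 (327) exceeded all 3 in lower genes. The median over all genes tested was 0.02 in each of the 3. The counts depend on the amount added before taking logs: with 5 CPM in place of 1, 124 genes were higher and 81 lower in sham 17, 119 and 130 in low 20, and 103 and 131 in high 13. The 3 comparisons share the same 27 libraries, so their values are set side by side and no overlap between them is read as a result.

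Transcripts of projection neurons were low in all 3 libraries. Drd2 (24318), a dopamine receptor of the indirect pathway, stood at 8.56 CPM (sham 17), 13.3 (low 20) and 16.4 CPM (high 13), whereas the others held 129 to 546 (median 336). Adora2a (25369), an adenosine receptor of the same neurons, stood at 7.97, 37.8 and 38.6 CPM against 221 to 1276 (median 628). Drd1 (24316), the dopamine receptor of the direct pathway, stood at 8.36, 23.4 and 29.97 CPM against 165 to 518 (median 357). Each of these receptors lay below all 27 others in each of the 3 libraries. So did 12% (sham 17), 13.6% (low 20) and 13.9% (high 13) of all genes tested. The libraries were chosen on a projection neuron transcript of the same table, so this is a description only. Penk, the enkephalin precursor, stood at 67.0, 82.5 and 109 CPM against a median of 1407. Over the 26 listed projection neuron transcripts other than Ppp1r1b, the median difference was -3.61 (sham 17), -3.30 (low 20) and -3.29 (high 13).

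Of those 26, the number below all 27 other libraries was 23 (sham 17), 24 (low 20) and 23 (high 13), where 12%, 13.6% and 13.9% of all genes tested were below all 27. These counts come from the contrast that chose the libraries and are given as a description. Not every member was low: Ido1, a tryptophan enzyme, was at most 2.45 CPM in every library, and Six3, a transcription factor of the developing forebrain, stood at 26.1, 15.8 and 26.0 CPM against 20.7 to 72.5, so that only low 20 lay below the others. The defining receptors were low but not at 0, and in bulk tissue fewer cells of a type and less RNA per cell cannot be told apart. Ppp1r1b at 197, 213 and 264 CPM lay within the range of the cerebellar libraries (102 to 787 CPM, median 223), although the striatal and cerebellar tables were scaled separately.

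The size of the difference was not uniform over the list or over the 3 libraries. Adora2a differed by -6.13 in sham 17 and by -4.02 and -3.99 in low 20 and high 13. Scn4b, a sodium channel subunit, went the same way (-5.14, -3.57 and -3.54), as did Pde10a, a cyclic nucleotide phosphodiesterase (-4.21, -3.00 and -3.14). Bcl11b, a transcription factor of projection neurons and deep cortical neurons, went the other way, with -2.38 in sham 17 and -4.08 and -3.90 in low 20 and high 13. Hpca, the calcium sensor hippocalcin, was at 1066 CPM there against 132 in low 20 and 151 in high 13 (others 1071 to 5211). The calmodulin-binding protein Nrgn was at 600.5, 123 and 120.4 CPM (others 1263 to 3924), and the inositol kinase Itpka at 76.4, 7.98 and 10.9 CPM (others 122 to 299).

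**Figure D1:**
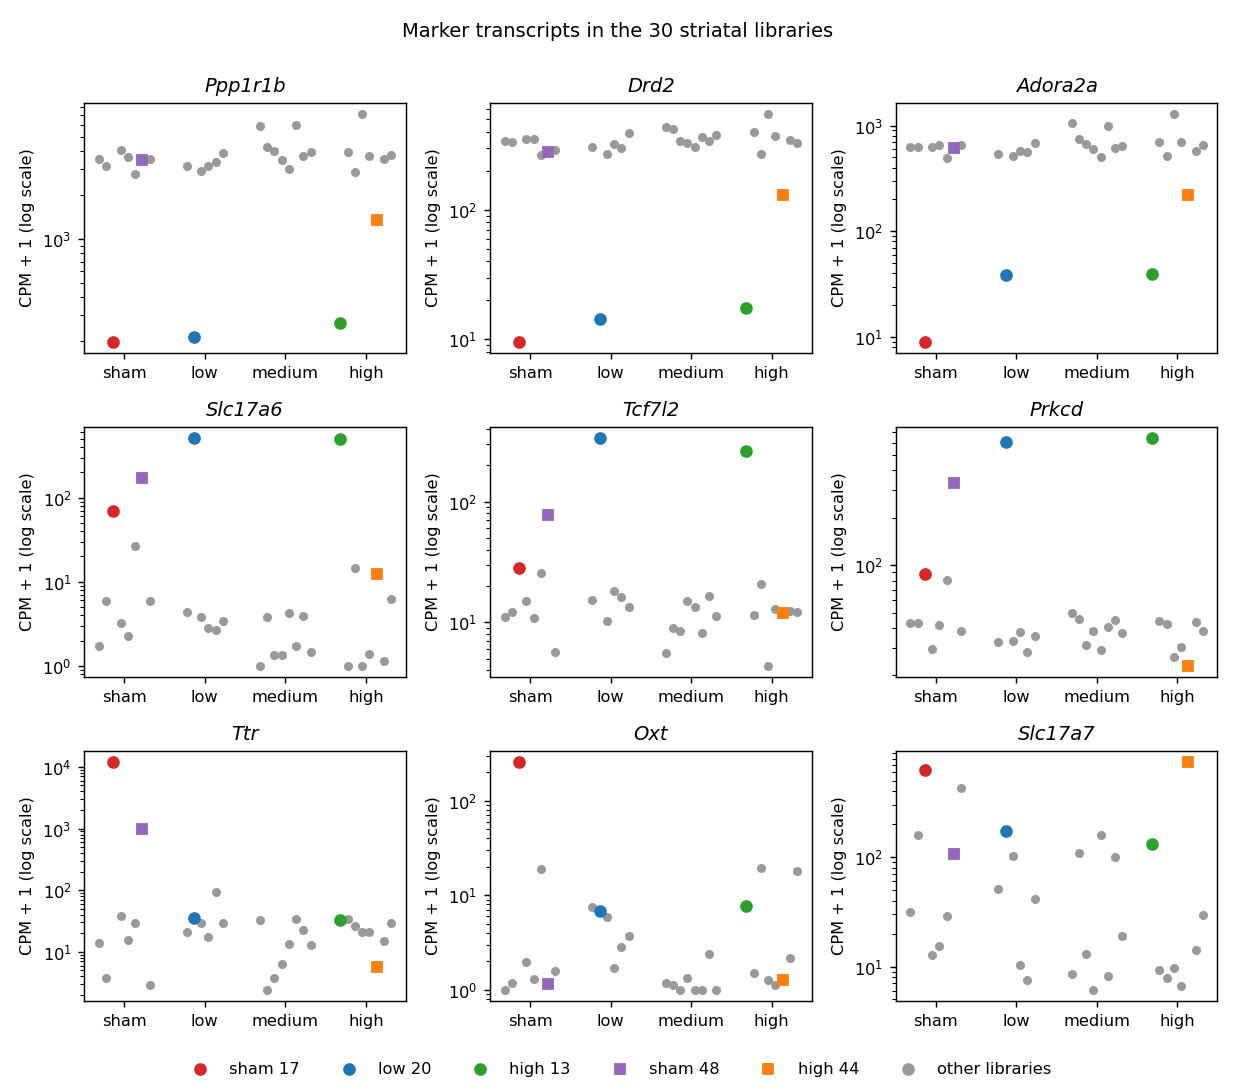
Levels of 9 transcripts (CPM + 1, log axis) in the 30 striatal libraries, by exposure group, 1 point per library, with the 3 libraries low in Ppp1r1b and the next relevant ones, sham 48 and high 44, coloured. Ppp1r1b, Drd2 and Adora2a are lowest in the 3 libraries, Slc17a6, Tcf7l2 and Prkcd are highest in low 20 and high 13, and Ttr and Oxt are highest in sham 17.

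Sham 17 was marked by transcripts of the choroid plexus. Ttr (24856), which encodes transthyretin, stood at 11932 CPM (sham 17), 34.6 (low 20) and 31.9 CPM (high 13), against 1.42 to 979 CPM (median 20.0) in the others. Sham 48 held the 979 CPM, so sham 17 lay above every other library, and low 20 and high 13 lay inside the range of the others. Of the 20 listed choroid plexus transcripts, 19 were above all 27 others in sham 17 (14% of all genes tested were), with a median difference of 5.80. In low 20 and high 13 the medians were 0.49 and 0.45, and 1 of the 20 was above all 27 in each (15.7% and 16.4% of all genes tested). The summed level of the list reached 14281 CPM in sham 17 but 117 CPM in low 20 and 103 CPM in high 13, the others holding 23.5 to 1145 CPM (median 55.2).

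The choroid plexus genes furthest above the others in sham 17 cover several functions of the epithelium. The transport proteins were the bicarbonate transporter Slc4a5 (199 CPM against at most 12.7), the chloride channel Clic6 (238 against at most 13.02) and the water channel Aqp1 (127 against at most 9.40). The tight junction protein Cldn2 stood at 167 CPM against at most 12.2, the co-receptor klotho (Kl, 83504) at 233 against at most 5.93, and Mfrp, a membrane protein related to frizzled receptors, at 301 against at most 25.02. The secreted antagonist Sostdc1 stood at 150 CPM and the coagulation factor F5 at 149 CPM. For each of these 8 genes the highest other library was sham 48. Otx2, a transcription factor of the choroid plexus that is also expressed in the diencephalon, stood at 163 CPM in sham 17 and was above all others in low 20 (36.4) and high 13 (21.4) too (others 1.12 to 13.02). The listed exception in sham 17 was Wfdc2, a secreted protease inhibitor, at 13.1 CPM within the range of the others (6.20 to 16.3).

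Transcripts of the ventricle wall and of the brain's coverings were also high in sham 17. The ependymal list had a median difference of 1.32 with 11 of 15 members above all 27 (14% of all genes tested), led by Foxj1, the master regulator of motile cilia, at 78.3 CPM against 2.71 to 27.4. In low 20 and high 13 the ependymal medians were 0.00 and 0.18. The list of meningeal and perivascular fibroblasts had a median of 1.75, with 17 of 18 members above all 27 against the same 14%. Its leading members were Igfbp2, a binding protein for insulin-like growth factors (627 CPM against at most 65.4), the sulfate transporter Slc13a4 (141 against at most 14.03), the matrix protein Fmod (84.3 against at most 9.96) and the growth factor Igf2 (828.6 against at most 90.002). Igf2 and Igfbp2 are also made by the choroid plexus. The fibroblast medians of low 20 and high 13 were 0.07 and -0.03.

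Hypothalamic transcripts were high in sham 17. Oxt (25504), the oxytocin precursor of magnocellular neurons, stood at 254 CPM, against 5.77 in low 20, 6.67 in high 13 and 0 to 18.5 (median 0.34) in the others. The calcitonin receptor Calcr was at 48.1 CPM (others 0 to 8.94) and Baiap3, an exocytosis protein, at 193 CPM (others 5.65 to 47.6). Avp, the vasopressin precursor made by the neighbouring magnocellular neurons, did not stand out: it was at 9.82 CPM, below the 21.6 of low 53. Sim1 and Otp, transcription factors of the paraventricular nucleus, were above all 27 others in sham 17 but low, at 1.94 and 2.82 CPM. Over the 21 listed hypothalamic and preoptic genes the median difference was 1.30 in sham 17 (12 above all 27), 0.29 in low 20 (3 above all 27) and 0.00 in high 13 (1 above all 27). Of all genes tested 14%, 15.7% and 16.4% were above all 27, so the counts of low 20 and high 13 were no larger than that share.

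The septal list was high in all 3 libraries, but through different members. Its medians were 2.17, 1.82 and 1.55. The Zic transcription factors, expressed in septum and in parts of the thalamus, stood at nearly the same level in all 3: Zic1 was at 173, 176 and 158 CPM (others 5.78 to 74.6) and Zic4 at 27.03, 27.4 and 23.9 CPM (others 0.34 to 15.3). The cation channel Trpc4, characteristic of the lateral septum, was at 52.7 CPM in sham 17 and at 6.21 and 6.19 in low 20 and high 13, inside the range of the others (2.17 to 8.11). Crhr2, a receptor for urocortins, followed the same order with 18.5, 2.07 and 1.33 CPM (others 0.35 to 2.60). The Zic genes therefore did not separate the 3 libraries, whereas Trpc4 and Crhr2 set sham 17 apart.

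Several cortical-type excitatory transcripts were high in sham 17 as well. Slc17a7 (116638), a vesicular glutamate transporter, was at 623 CPM (sham 17), 173 (low 20) and 132 CPM (high 13), against 5.12 to 740 (median 18.1). The 740 CPM were those of high 44, the library next above the Ppp1r1b limit. Neurod6 and Neurod2, transcription factors of pallial glutamatergic neurons, were at 73.9 and 71.3 CPM in sham 17 but at 0.59 and 0.89 in low 20 and 0.97 and 1.33 in high 13 (highest others 31.3 and 37.9, both high 44). Bhlhe22 went the same way (96.2, 3.70 and 3.52 CPM). The cortical list was mixed in sham 17, with a median of 2.11, 5 of 16 members above all 27 (14% of all genes tested) and 3 below (12%). Itpka, also on this list, was among those below, at 76.4 CPM against at least 122 in the others.

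Low 20 and high 13 were marked by transcripts of the thalamus. Slc17a6 (84487) stood at 508 CPM in low 20 (3435 reads) and 498 in high 13 (4106 reads), against 68.4 in sham 17 (703 reads) and 0 to 170 (median 2.23) in the others. Both lay above every other library, and the 170 CPM were those of sham 48. Of the 20 listed thalamic transcripts, 17 in low 20 and 16 in high 13 were above all 27 others (15.7% and 16.4% of all genes tested), with median differences of 3.95 and 3.75. In sham 17, 4 were above all 27, near the 14% of all genes, and the median was 1.15. Among the 27, sham 48 alone had a higher median (2.63), and sham 34 came closest below with 0.90. The summed level of the list was 3162 CPM in low 20, 2905 in high 13 and 760 in sham 17, against 203 to 1270 CPM (median 274). Tnnt1 and Lhx2 were below all 27 others in both low 20 and high 13, so the list did not move as a whole.

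The thalamic members include the transcription factors of that region. Shox2 (25546), a homeobox factor whose locus overlaps that of Rsrc1, stood at 101 CPM in low 20 and 108 in high 13, against 1.07 in sham 17 and 0 to 59.7 (median 0.15) in the others. Tcf7l2 (679869), a factor of the Wnt pathway that marks thalamus and habenula, stood at 334, 262 and 26.9 CPM in the same order of libraries, against 3.36 to 75.8. Its relative Lef1 stood at 57.2, 49.5 and 5.93 CPM (others 1.75 to 17.2), and the homeobox factor Gbx2 at 27.2, 20.4 and 2.43 CPM (others 0 to 7.52). The same split, high in low 20 and high 13 and within the range of the others in sham 17, held for each of these 4 factors. Prkcd (170538), a protein kinase C of thalamic relay neurons, followed it with 603, 638 and 86.9 CPM (others 22 to 331), and so did the axon guidance protein Ntng1 with 320, 284 and 36.7 CPM (others 4.38 to 93.0).

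Further genes furthest above the others in low 20 and high 13 were the myosin-binding protein Mybpc1 (58.7 and 65.5 CPM, others at most 14.9), the nicotinic receptor subunit Chrna4 (179 and 152, at most 70.4) and the glutamate receptor Grm2 (99.8 and 84.0, at most 46.1). The potassium channel Kcnc2 stood at 517 and 554 CPM (at most 147). For each of these, and for the factors above, sham 48 was the highest of the 27 others.

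The sequences upstream of 3 transcripts on which the description of the libraries turns are given as the 250 bases before the RefSeq start (GRCr8 build), in lower case. Slc17a6 is shown for low 20 and high 13, and Kl and Oxt for sham 17. Capitals mark matches on either strand to the core bound by TCF and LEF factors (CTTTGAA or CTTTGAT) or by OTX factors (TAATCC), 2 motifs that do not overlap each other.
Slc17a6 (chr1:110348197-110348446, plus strand): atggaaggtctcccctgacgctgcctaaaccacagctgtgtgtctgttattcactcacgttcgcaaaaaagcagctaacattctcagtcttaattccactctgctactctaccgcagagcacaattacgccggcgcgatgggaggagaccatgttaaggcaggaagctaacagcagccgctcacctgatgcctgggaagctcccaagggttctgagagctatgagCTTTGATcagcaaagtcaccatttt
Kl (chr12:5325753-5326002, plus strand): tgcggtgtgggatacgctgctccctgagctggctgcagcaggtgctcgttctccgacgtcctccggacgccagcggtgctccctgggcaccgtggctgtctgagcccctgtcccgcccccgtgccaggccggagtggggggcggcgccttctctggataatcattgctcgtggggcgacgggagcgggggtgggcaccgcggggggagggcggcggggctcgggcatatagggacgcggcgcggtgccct
Oxt (chr3:138235504-138235753, plus strand): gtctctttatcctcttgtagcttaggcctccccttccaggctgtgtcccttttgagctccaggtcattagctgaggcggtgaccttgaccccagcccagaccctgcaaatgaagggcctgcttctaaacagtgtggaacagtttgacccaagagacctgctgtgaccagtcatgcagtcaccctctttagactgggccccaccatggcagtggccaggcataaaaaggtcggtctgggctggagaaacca
The Slc17a6 window held 1 TCF/LEF match, while those of Tcf7l2 and Prkcd, not printed, held 0, and the windows of Kl and Oxt held no match to either core. Among windows of the same length the TCF/LEF core occurred in 7.58% of 27457 genes and in 1 of 16 thalamic list genes with an entry. The OTX core occurred in 6.33% of all and in 1 of 14 choroid plexus genes. A match is a run of letters, not a shown binding site.

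Habenular transcripts were high in all 3 libraries and highest in low 20 for several genes. The list had medians of 2.66 in sham 17, 3.67 in low 20 and 2.71 in high 13, with 9, 8 and 7 of 10 members above all 27 (14%, 15.7% and 16.4% of all genes tested). Gpr151, an orphan receptor of habenular neurons, stood at 14.6, 28.8 and 12.3 CPM (others 0 to 1.74), and the nicotinic subunit Chrna3 at 21.5, 47.0 and 24.8 CPM (others 0.13 to 2.89). Chrnb4, which assembles with Chrna3, stood at 7.39, 15.7 and 5.70 CPM (others 0 to 0.96). Calb2, the calcium buffer calretinin, which is also on the thalamic list, stood at 136, 179 and 83.0 CPM (others 1.93 to 86.5). High 13 thus lay just inside the range of the others for Calb2, while low 20 and sham 17 lay above it.

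Low 20 and high 13 resembled each other more closely than either resembled sham 17. Compared directly, 4 of 10766 genes (0.0372%) differed by more than 4-fold, against 2.59% of 11059 genes between sham 17 and low 20 and 2.7% of 11062 between sham 17 and high 13. Across genes, Pearson's r of the log2 levels was 0.99 for low 20 and high 13, and 0.91 for sham 17 with either, a description over genes that share libraries. The likeness was not unusual among striatal libraries. By chi-square of read counts per gene, where lower is closer, low 20 and high 13 ranked 65 of 435 pairs (8.59, closest pair 3.26). The 2 genes higher in low 20 were Pmch (24659), the precursor of melanin-concentrating hormone of the lateral hypothalamus and zona incerta, and Parpbp. Pmch was at 82.8 CPM (560 reads) in low 20 and 4.00 CPM (33 reads) in high 13, and at 6.61 CPM in sham 17, against at most 2.07 in the others. Parpbp was at 87.4 and 2.79 CPM. RefSeq places these 2 genes over one another, and since strand use in counting is not given, their reads cannot be told apart. The 2 genes higher in high 13 were the immediate early gene Fos (21.2 against 3.10 CPM, with a median of 16.6 in the 27 others) and the mitotic kinase Aurkb (13.7 against 2.66 CPM).

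**Figure D2:**
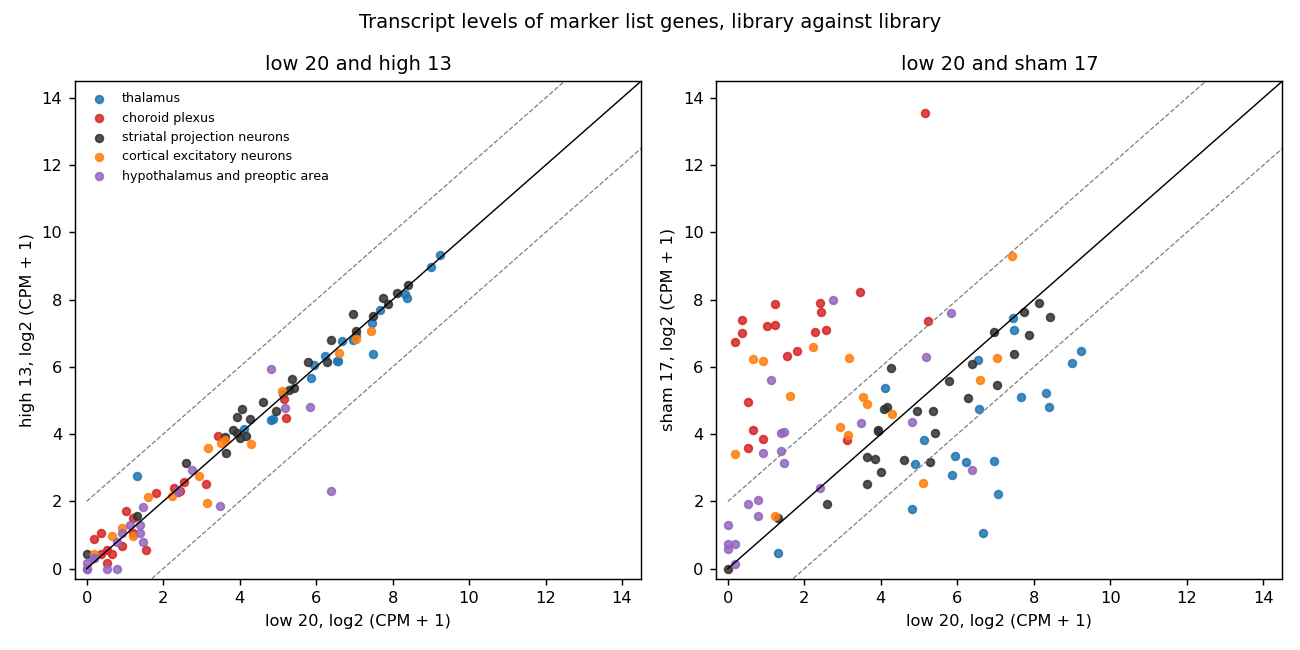
Log2 of CPM + 1 for genes of 5 marker lists, high 13 against low 20 (left) and sham 17 against low 20 (right), 1 point per gene, with the line of equality and dashed lines at 4-fold. The lists fall along equality on the left except for Pmch; on the right choroid plexus genes lie above the line and most thalamic genes below it.

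The remaining neuron lists separated the libraries less. Striatal interneuron transcripts had medians of -0.11, -0.87 and -1.56. Sst, the somatostatin precursor, was at 115 CPM in sham 17 (others 76.1 to 282) but at 14.3 and 20.7 in low 20 and high 13, and the factor Lhx6 was at 16.9, 2.37 and 4.37 CPM (others 10.7 to 30.5). Chat, the acetylcholine enzyme of cholinergic interneurons, was at 14.8, 18.3 and 11.6 CPM, within the others (6.01 to 40.8). Sst and Lhx6 thus lay below all others in low 20 and high 13, while Chat did not. The lists of amygdala and bed nucleus (1.16, -0.04 and 0.12), claustrum (-1.02, -0.07 and -0.28), cerebellum (1.71, 0.22 and 0.70) and hindbrain (1.31, 0.46 and 0.10, with 5 of 13 listed genes in the table) had medians past 1 log2 unit in sham 17 only.

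Several of these lists share members with others, among them Zic1 on the cerebellar list and Prkcd on the amygdala list. Gabra6, a receptor subunit of cerebellar granule cells, was at 2.92 CPM in sham 17, below the 4.43 of sham 49, and at 0 and 0.97 CPM in low 20 and high 13. Medians of the hippocampal, midbrain, olfactory bulb, neuroblast, pallidal and blood lists stayed within 1 log2 unit of 0 in all 3 libraries.

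Microglial and endothelial transcripts were low in sham 17. In sham 17 the medians were -0.97 for microglia (8 of 15 below all 27), -0.95 for endothelial cells (7 of 15), -0.68 for mural cells (3 of 14) and -0.52 for astrocytes (3 of 17). Of all genes tested 12% were below all 27 in sham 17, and the mural and astrocyte counts were near that share. The corresponding medians were -0.34, 0.00, -0.06 and 0.26 in low 20 and -0.39, 0.06, -0.05 and 0.17 in high 13. Cldn5, the tight junction protein of brain endothelium, was at 88.3 CPM (sham 17), 139 (low 20) and 134 CPM (high 13), against 125 to 325, and the glutamate transporter Slc1a2 was at 152, 455 and 424 CPM, against 57.04 to 835. In high 13, 14 of 18 myelin transcripts were above all 27 others (16.4% of all genes tested), with a median of 0.69, and the list sum was 41250 CPM against at most 37455. The myelin medians were 0.29 in sham 17 and 0.01 in low 20.

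**Figure D3:**
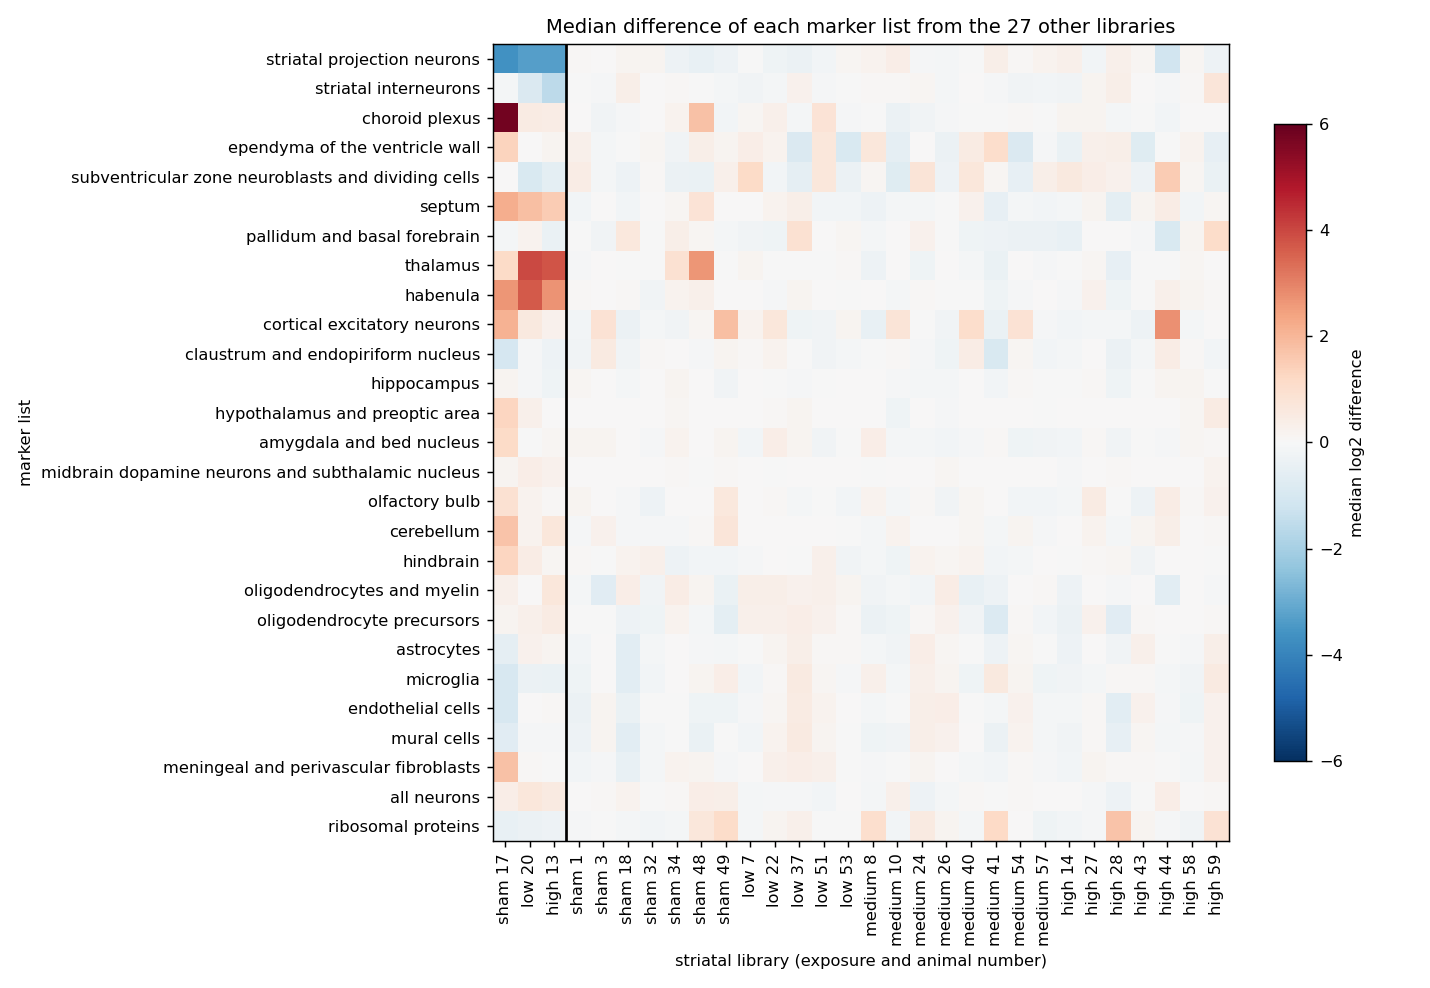
Median log2 difference of 27 marker lists (rows) from the median of the 27 other libraries, in all 30 striatal libraries (columns), with the 3 libraries low in Ppp1r1b left of the line; projection neurons are shown without Ppp1r1b. The choroid plexus list reaches 5.80 in sham 17 and the thalamic list 3.95 and 3.75 in low 20 and high 13. Sham 48 shows smaller values than these for both lists (1.77 and 2.63). High 44 has a cortical median of 2.76, above the 2.11 of sham 17.

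Some of the same neighbouring transcripts were also high in libraries above the Ppp1r1b limit. Sham 48 had median differences of 2.63 for the thalamic list and 1.77 for the choroid plexus list, with 1270 and 1145 CPM in sum, while its projection neuron median was -0.43. High 44 had 2.76 for the cortical list, above the 2.11 of sham 17, and 1.504 for neuroblasts and dividing cells, with -1.15 for projection neurons and -0.04 for the thalamic list. With high 44 left out of the reference, each list median of the 3 libraries moved by less than 1 SD of that median over the others.

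The cerebellar libraries of the same animals, which the choice did not use, were tested against those of the 28 other animals, with exposure in the model. No gene of 11946 passed in either direction (0%) in edgeR's quasi-likelihood test with Benjamini-Hochberg adjustment, where 79 had an unadjusted p under 0.05 (28 higher and 51 lower) and the smallest adjusted p was 0.818. DESeq2 called 0 genes too, with 242 at unadjusted p under 0.05. On simulated counts the edgeR test recovered 2.99% of genes changed 1.5-fold, 23.9% of those changed 2-fold and 66.7% of those changed 4-fold. The absence of calls therefore does not show that the cerebellar libraries were alike. In cerebellum, Ppp1r1b stood at 219 CPM in animal 17, 201 in animal 20 and 209 in animal 13, near the median of 223 in the others. In edgeR its log2 difference was -0.45 ± 0.41 (SE, adjusted p 0.818). No difference in cerebellar Ppp1r1b was detectable at this spread.

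Neighbouring transcripts of the cerebellum varied more widely. Ttr stood at 2.83 CPM in animal 17, 0 in animal 20 and 249 in animal 13, against 0.30 to 8607 (median 4.87) in the others, so that animal 17, highest in striatal Ttr, was below the cerebellar median. The difference was -2.86 ± 2.16 (adjusted p 0.818 in edgeR), and it turned to 2.88 without the 10 cerebellar libraries that stood apart on ribosomal protein or granule cell transcripts. Those 10 include high 59, which held the 8607 CPM. Among the 3 animals only animal 13 lay above the median of 4.87, so the positive value rests on that animal. Slc17a6 stood at 0.74, 0.38 and 7.94 CPM against 0.10 to 91.5 (median 0.99), with a difference of 0.30 ± 1.49 (adjusted p 0.923), and it was -2.79 without animal 13. Granule cell transcripts of the 3 animals were at ordinary levels, with Gabra6 at 744, 860 and 724 CPM (median of the others 827). The genes of smallest p were Trim63, a muscle ubiquitin ligase (1.24 ± 0.41), Uckl1, a uridine kinase (0.36 ± 0.13), Bub1, a spindle checkpoint kinase (0.85 ± 0.31), Nek11, a kinase (-1.51 ± 0.52), Mmgt2 (-1.07 ± 0.38) and Riox2 (-0.94 ± 0.33), each with an adjusted p of 0.818 in edgeR. None of the 10 libraries standing apart, of 31, was from the 3 animals.

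**Figure D4:**
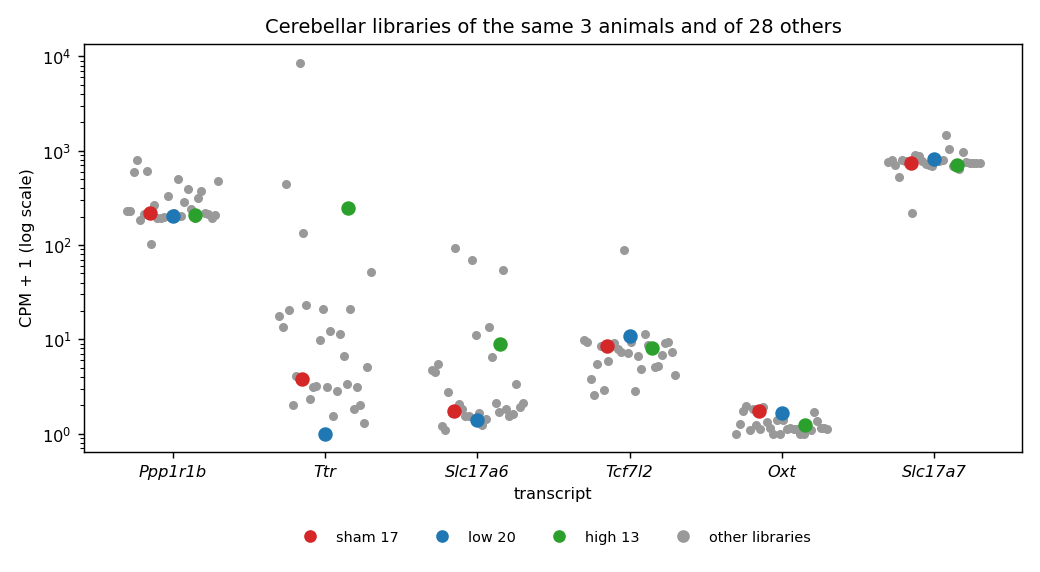
Cerebellar levels (CPM + 1, log axis) of 6 transcripts in the 3 animals whose striatal libraries were low in Ppp1r1b (coloured) and in 28 other animals (grey), 1 point per library. Ppp1r1b of the 3 animals is 201 to 219 CPM, near the median of 223, and Ttr is 2.83, 0 and 249 CPM within a range of 0.30 to 8607.

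The 3 libraries sit in 3 of the 4 exposure groups, so each comparison with sham holds 1 or 2 of them. With all 30 libraries, edgeR called 0 of 12267 genes for low, medium or high against sham, with 471, 453 and 141 at unadjusted p under 0.05. Without the 3, it called 0 of 12243, with 581, 285 and 98 genes at that level. DESeq2 called 0 in each of the 3 comparisons on all 30 libraries (540, 469 and 130 at that level). Where nothing says that libraries come from separate cohorts, these p-values measure the spread between these samples. The biological coefficient of variation, the spread between libraries beyond counting error, was 0.3065 with the 3 and 0.2693 without them. Testing all 4 groups jointly called 3 genes of 12267 (0.0245%): Ttr (adjusted p 0.0266), Slc4a5 (0.0471) and Kl (0.0471), all choroid plexus transcripts. DESeq2 called 0 in this joint test (310 at unadjusted p under 0.05, smallest adjusted p 0.724), and edgeR called 0 with a term for runs of animal numbers (smallest adjusted p 1), 11 with no filter and 10 with a mean CPM of at least 1. DESeq2 ran with its default settings, which can replace or set aside an extreme count of a single library. Whether counts of sham 17 were so treated was not recorded. Without the 3 libraries no gene passed of 12243 (232 at unadjusted p under 0.05), and Ttr and Kl had an adjusted p of 1, while Slc4a5 did not pass the filter on low counts. No gene passed either without sham 17 (smallest adjusted p 1), without low 20 (0.0513) or without high 13 (0.0509).

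In each of these 3 genes sham 17 held the highest level of all libraries. Ttr ranged from 1.92 to 11932 CPM (median 21.6) in sham, 16.2 to 92.1 (28.5) in low, 1.42 to 33.5 (12.0) in medium and 4.78 to 33.4 (22.9) in high. Kl ranged from 0.48 to 233 CPM (median 0.97) in sham, 1.33 to 4.17 (1.78) in low, 0.17 to 2.07 (0.86) in medium and 0.13 to 1.82 (1.40) in high. The ranges of the 4 groups overlapped in both genes. Without sham 17 the highest sham values were 979 CPM of Ttr and 5.93 CPM of Kl, both in sham 48. Against sham, Ttr stood at -5.46 ± 1.501 (low), -6.72 ± 1.40 (medium) and -6.17 ± 1.37 (high) with all 30 libraries, and at -2.05 ± 1.08, -3.33 ± 0.96 and -2.87 ± 0.99 without the 3. With sham 48 and high 44 left out as well, Ttr turned to 1.17 (low) and 0.53 (high). None of these passed in edgeR (adjusted p 0.276 to 1).

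Slc17a6 changed sign with the 3 libraries. It ranged from 0.73 to 170 CPM (median 4.86) in sham, 1.67 to 508 (2.60) in low, 0 to 3.22 (0.58) in medium and 0 to 498 (2.85) in high. Its log2 fold change was 1.29 ± 1.42 (low) and 0.92 ± 1.33 (high) with all 30 libraries and -3.60 ± 1.25 and -2.78 ± 1.03 without the 3, where sham 48 held the highest value. At the medium loading, where the exposed group holds none of the 3, it was -4.71 ± 1.73 and -4.48 ± 1.11. None of these passed in edgeR (smallest adjusted p 0.864).

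The genes of smallest p in the exposure comparisons were of the same kind on the lower side. For the low loading they were Slc16a8, a lactate transporter of choroid plexus (-2.43 ± 0.69), and Slc4a5 (-3.87 ± 1.15) on the lower side, and Rhbdf1 (0.58 ± 0.12), Sh3d21 (0.83 ± 0.21) and Elf2 (0.34 ± 0.10) on the higher side. For the medium loading Clic6 was at -4.33 ± 0.95, and the kinase Stk17b (0.54 ± 0.17), Kyat3 (0.44 ± 0.14) and Cebpg (0.29 ± 0.09) were higher. None passed in edgeR with Benjamini-Hochberg adjustment (smallest adjusted p 0.685, 0.276 and 0.644 for low, medium and high).

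The list medians with and without the 3 libraries cover different genes, since some members pass the filter on low counts only through the libraries where they are high. The thalamic list median was 0.86 (low), -1.16 (medium) and 0.51 (high) with all 30 libraries and -0.65, -1.12 and -0.57 without the 3, over 19 and 17 members tested, beside medians over all genes of -0.0021 to 0.0216. The choroid plexus medians were -2.82, -3.46 and -3.26 with all and -0.29, -0.43 and -0.38 without the 3, over 12 and 9 members tested, so the drop is given as a description only. Projection neuron transcripts without Ppp1r1b had medians of -0.16, 0.38 and 0.00 with all and -0.10, 0.19 and -0.0041 without the 3, with 25 members tested and none called in any comparison. Since the 3 libraries were chosen by low Ppp1r1b, a smaller spread of this list without them follows from the choice.

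**Figure D5:**
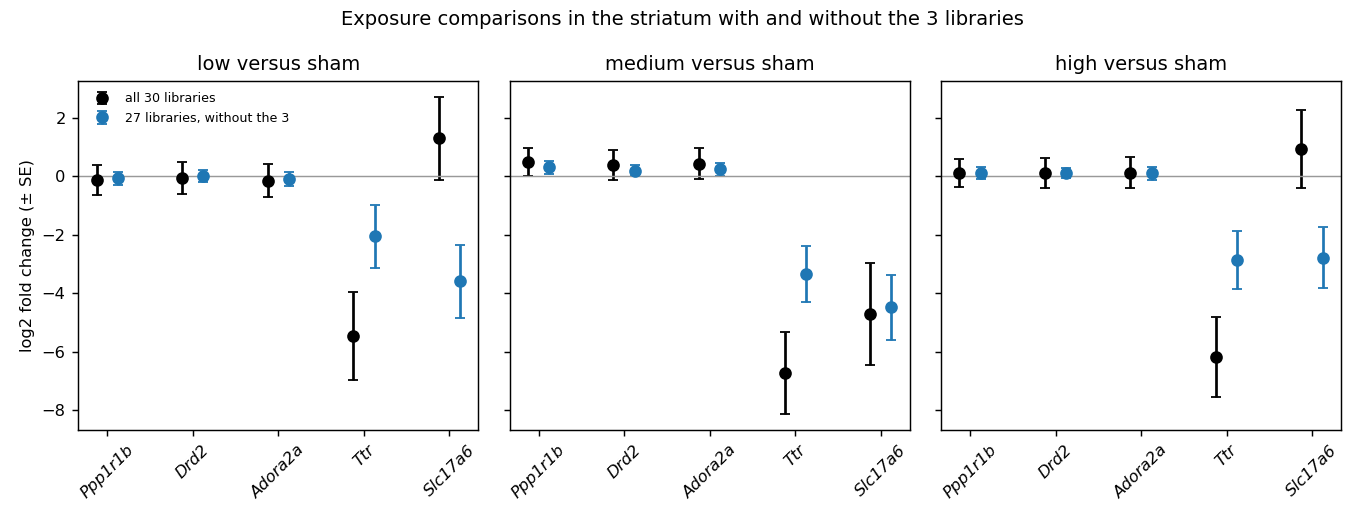
Log2 fold change against sham (± SE) of 5 marker transcripts in the striatum for the low, medium and high loading, with all 30 libraries (black) and without the 3 libraries low in Ppp1r1b (blue). Slc17a6 changes sign for low (1.29 to -3.60) and high (0.92 to -2.78), Ttr moves from -5.46, -6.72 and -6.17 to -2.05, -3.33 and -2.87 (1.17 for low and 0.53 for high without sham 48 and high 44 too, not drawn), and Ppp1r1b, Drd2 and Adora2a lie between -0.14 and 0.49.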

How the data were processed

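RNA sequencing of striatal and cerebellar punches gave 2 tables of whole-number counts per gene, deposited by the authors without normalization. FastQC, HISAT2 and the rn6 build are named per the submitters' processing notes; for the counting tool, its strand setting and the annotation, the sources used here name none. Counts were scaled by TMM to CPM. Levels in the 3 libraries were compared as log2 of CPM + 1 over the median CPM + 1 of the 27 others, for genes with at least 5 CPM in either, and more than 4-fold was counted. The cerebellar and exposure comparisons used edgeR 4.0.16 (quasi-likelihood, limma 3.58.1, R 4.3.3) with Benjamini-Hochberg adjustment at 0.05, after tests on simulated data, and DESeq2 1.42.0 as an alternative. Other alternatives were RLE size factors, other filters, pseudocounts and references, a term for runs of 15 animal numbers, and leaving out libraries. Those leaving out high 44 or sham 48 were chosen after seeing the data. Each SE was derived from the edgeR test, as the absolute log2 difference divided by the square root of the F statistic.

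The members and the 30 marker lists (523 genes, 484 in the striatal table) were chosen with earlier results of these data known. Genes were named by rule: up to 10 with the largest difference per direction and library (at least 50 reads, or a median of 20 CPM in the others), 5 fixed markers, up to 4 members of each list whose median passed 1 log2 unit, members showing that a list did not move, and the smallest p-values of each test. Other named genes, among them Prkcd, Gbx2, Lef1, Sst, Chat and Pde10a, were chosen after their values were seen. Promoter sequences are from RefSeq (GRCr8), matched by gene ID, and 16 of 20 thalamic, 14 of 20 choroid plexus and 20 of 27 projection neuron genes had an entry.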

Additional observations from a re-analysis of the deposited data

Results flagged for a closer look

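Within each exposure group, 20 quantities (5 markers and 15 list means) were examined for a single library far from the rest. The measure was its gap to the nearest library divided by the range of the group, both on log2 of CPM + 1. Of 80 group and quantity pairs, 31 passed the 95% limit of Dixon's test, 27 of them through the 3 libraries low in Ppp1r1b. Chance gives about 1 in 20 where libraries are not chosen for their values. These 3 were chosen as the lowest in Ppp1r1b from the same table, so the count is a description and cannot be set against that rate.

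Among projection neuron measures the outlying library was the lowest. The ratio for Ppp1r1b was 0.875 in sham 17 and 0.901 in low 20, for Drd2 0.918 in sham 17, 0.886 in low 20 and 0.584 in high 13, and for Adora2a 0.934 in sham 17 and 0.903 in low 20. The projection neuron list gave 0.833, 0.856 and 0.554 in sham 17, low 20 and high 13.

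For the neighbouring tissues the outlying library was the highest. Slc17a6 gave 0.904 in low 20 and 0.569 in high 13, and the thalamic list 0.925 and 0.742. The habenular list gave 0.698, 0.959 and 0.807 in sham 17, low 20 and high 13, and the septal list 0.562 in sham 17 and 0.738 in low 20. In sham 17 the ratio was 0.606 for choroid plexus, 0.595 for ependyma, 0.67 for hypothalamus, 0.652 for amygdala and bed nucleus, 0.53 for hindbrain and 0.714 for fibroblasts. In low 20 it was 0.875 for the cerebellar list and 0.804 for regional transcription factors. These ratios use list means. The median difference of the cerebellar list in low 20 was 0.22, and that list shares Zic1 with the septal and thalamic lists.

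The remaining 4 came from other libraries. High 44 was highest for the cortical list (0.83) and the claustrum list (0.628) and lowest for Ttr (0.539), and medium 40 was highest for the hindbrain list (0.559).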

How the results depend on the processing

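Against the 3 genes called for any exposure, the count was 0 without the 3 libraries, with DESeq2, with the run of animal numbers as a term, and without the 3 libraries, high 44 and sham 48. It was 11 with no filter and 10 with a mean CPM of at least 1, and 0 to 0 leaving out sham 17, low 20 or high 13. In the levels, 5 CPM in place of 1 gave 124 higher and 81 lower genes in sham 17, 119 and 130 in low 20, and 103 and 131 in high 13, and a minimum of 20 CPM gave 171 higher genes in sham 17. The cerebellar count was 0 in each setting run.

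Some uncalled fold changes turned sign. In cerebellum Ttr was 2.88 without the libraries standing apart, and Slc17a6 was -1.70 with no exposure term, -1.15 with the run term and -2.79 to 1.14 leaving out each animal. For low against sham, without the 3 libraries Drd2 was 0.01 (0.0072) and Slc17a6 -3.60; without high 44 and sham 48 as well, Ttr was 1.17 and Slc17a6 -1.46. For high against sham, Slc17a6 was -2.78 without the 3, -1.73 with DESeq2, -0.65 with the run term and -1.08 without the 5, where Ttr was 0.53 and Kl 0.33. Leaving out each of the 3 in turn gave, for low, Ppp1r1b -0.32 to 0.10, Drd2 -0.24 to 0.19, Adora2a -0.34 to 0.091 and Slc17a6 -3.81 to 1.51, and for high, Ppp1r1b -0.061 to 0.30, Drd2 -0.074 to 0.30, Adora2a -0.073 to 0.30 and Slc17a6 -3.01 to 1.13. The cause was not tested.

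Of the single-gene and list levels, 1728 kept within the spread of the others and 144 moved, with none reversed. No paired analysis was possible because the compared groups hold different animals and share fewer than 2 numbers. With 1 library each, the differences of the 3 have no replicate check.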

Other observations

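Of 15 transcripts listed for neurons of all kinds, 4 in sham 17, 5 in low 20 and 5 in high 13 were above all 27 others and 1 in each was below, with medians of 0.42, 0.70 and 0.56. Of all genes tested, 14%, 15.7% and 16.4% were above all 27 in these libraries, and 12%, 13.6% and 13.9% were below. Sham 48 had a median of 0.42 as well. The 3 members given here were chosen after their values were seen. Vsnl1, a calcium sensor, stood at 423 CPM (sham 17), 436 (low 20) and 472 CPM (high 13), against 40.9 to 364 (median 71.2) in the 27 others. Nefh, the heavy neurofilament subunit of large axons, stood at 204, 308 and 293 CPM, against 37.9 to 178. Both lay above every other library in each of the 3. Elavl4, a neuronal RNA-binding protein, lay above all others in low 20 and high 13 (92.1 and 99.7 CPM, others 8.21 to 71.2) but not in sham 17 (58.7 CPM).

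Transcripts of GABA synthesis and transport differed between the libraries. Gad1, which makes GABA, stood at 334 CPM (sham 17), 111 (low 20) and 205 CPM (high 13), against 271 to 614. The vesicular transporter Slc32a1 stood at 232.5, 70.2 and 86.3 CPM, against 184 to 386. Sham 17 lay inside the range of the others for both, and low 20 and high 13 lay below it.

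Ribosomal protein transcripts were lower in the 3 libraries, with medians of -0.45, -0.33 and -0.31 over 72 genes. Of these, 52 in sham 17, 44 in low 20 and 34 in high 13 were below all 27 others (12%, 13.6% and 13.9% of all genes tested). In the cerebellum of animal 13, Kl (8.76 CPM), Slc4a5 (7.12) and F5 (4.67) stood above all 28 other animals (highest 6.27, 6.37 and 2.03). So did Clic6 (18.6, highest 17.2), but no other of the 20 listed choroid plexus genes. Ttr was at 249 CPM against at most 8607, and Otx2 at 41.1 against at most 116. The list median was 0.88 in animal 13, below the 1.89 of high 59. The share of all genes above all 28 is not given here.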
